A study of Mus musculus with 12 samples.

Results

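The genes of the Creb3 family encode transcription factors of the basic leucine zipper class that are anchored in the membrane of the endoplasmic reticulum (ER). All 5 members, *Creb3*, *Creb3l1*, *Creb3l2*, *Creb3l3* and *Creb3l4*, were chosen by name and were found among the 24189 genes that the 10 RNA-seq libraries share. They were followed in plasmablasts (PBs) of 3 genotypes and in plasma cells (PCs) of 2 genotypes, with 2 libraries for each group, all from C57BL/6 mice. The PBs were made from splenic B cells in the iGB culture, in which B cells grow on irradiated 40LB feeder cells, a fibroblast-derived line that presents CD40 ligand and BAFF, first with IL-4 and then with IL-21, and were sorted on day 8. They came from *Xbp1* fl/fl control mice, from *Cd23*-Cre *Xbp1* fl/fl mice, in which Cre deletes *Xbp1* in B cells from the immature stage onwards, and from *Bhlha15* CreER/CreER mice, which carry CreER on both alleles of *Bhlha15*, the gene of the transcription factor Mist1. The PCs were sorted from the spleen on day 7 after immunization of mice labelled wild type, for which the study's own sample list gives *Bhlha15* fl/fl, and of *Cd23*-Cre *Bhlha15* fl/fl mice. PBs of a *Bhlha15* control were not analysed here, and the *Bhlha15* CreER/CreER PBs were compared with the *Xbp1* fl/fl PBs. Positions of Mist1 peaks came from 2 Bio-ChIP experiments on CD138+ PBs after 4 days with LPS, prepared from *Bhlha15* fl/fl R26 BirA/BirA mice.

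When secretory cargo builds up in the ER, the factors of this family travel to the Golgi, where the proteases encoded by *Mbtps1* and *Mbtps2* cut them in turn and release the part that enters the nucleus. *Atf6*, a factor of the unfolded protein response, and the SREBP factors of lipid synthesis are freed by the same proteases. Xbp1 is the central factor of that response in PCs, cells whose ER is enlarged for antibody secretion, whereas Mist1 is known from exocrine secretory cells. Because the family acts through cleaved protein, its transcript levels do not measure its activity.

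Expression was read as deposited TPM, the share of a gene among the transcripts of a library, corrected by the authors for gene length and scaled to the same sum in every library, so that levels of different genes may be compared. The read depth behind it is unknown. The labelled genotypes were first checked at the targeted genes. *Bhlha15* was found at 258 and 242 TPM in wild type PCs and at 14.4 and 16.6 TPM in *Cd23*-Cre *Bhlha15* fl/fl PCs. Control PBs had 176 and 159 TPM, *Bhlha15* CreER/CreER PBs 0.210 and 0.551 TPM, and PBs of *Cd23*-Cre *Xbp1* fl/fl mice 3.57 and 2.60 TPM, so that both mutant PB genotypes had little *Bhlha15* mRNA. *Xbp1* mRNA reached 3168 and 3043 TPM in control PBs, against 1981 and 2024 TPM after deletion with *Cd23*-Cre. A deletion of part of the gene need not remove the whole transcript, and TPM per gene do not resolve exons.

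*Creb3* and *Creb3l2* supplied nearly all of the family's transcripts. They were found between 40.3 and 403 TPM in every library, *Creb3l1* between 1.62 and 8.19 TPM, *Creb3l4* between 0.335 and 1.12 TPM, and *Creb3l3* at no more than 0.158 TPM. The TPM of the members summed to 231 to 234 in control PBs, 150 to 153 in PBs lacking Xbp1, 242 to 248 in *Bhlha15* CreER/CreER PBs, 476 to 482 in wild type PCs and 543 to 580 in *Cd23*-Cre *Bhlha15* fl/fl PCs. *Creb3* made up 53.7% and 55.1% of that sum in the control PBs, and *Creb3l2* made up 71.2% and 71.1% in wild type PCs. The leading member thus differed between the cultured PBs and the splenic PCs.

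**Figure D1:**
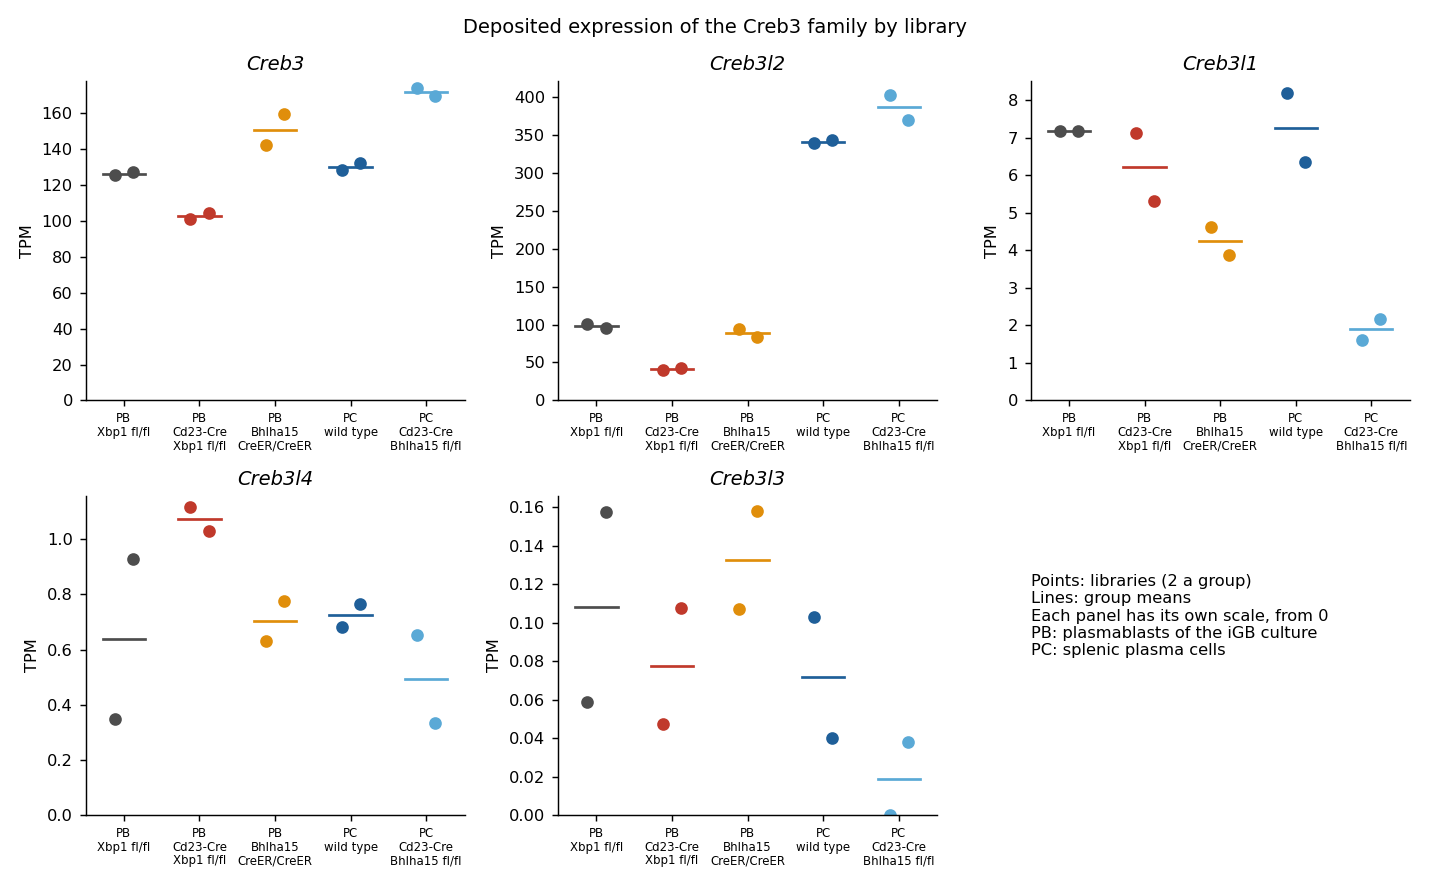
Deposited TPM of each family member in the 10 libraries, with a point for each library and a line at the mean of the 2 libraries of a group. *Creb3l2* sat between 339 and 403 TPM in the PC libraries and at or below 101 TPM in the PB libraries, and *Creb3l1* was lowest in *Cd23*-Cre *Bhlha15* fl/fl PCs.

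*Creb3l2* (chr6:37277255-37392146, minus strand, mm9) encodes BBF2H7, known from the secretory pathway of cartilage cells, where it acts on the COPII coat gene *Sec23a*. Control PBs had 101 and 95.5 TPM of *Creb3l2*, *Xbp1*-deficient PBs (the *Cd23*-Cre *Xbp1* fl/fl genotype) had 40.3 and 42.1 TPM, and *Bhlha15* CreER/CreER PBs had 93.9 and 83.2 TPM. Wild type PCs had 339 and 343 TPM, and *Cd23*-Cre *Bhlha15* fl/fl PCs had 403 and 370 TPM. In the order of the group means of deposited TPM, no neighbouring pair of groups overlapped in its libraries, which also held for *Creb3*. For *Creb3*, wild type PCs and control PBs changed places once all 10 libraries were scaled together. They were then at 125 and 124 TPM in the PCs and at 132 and 130 TPM in the PBs. The share of all genes with such an order is not given here.

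Its RefSeq promoter is shown, beside that of *Creb3*, because *Creb3l2* differed both with genotype and between PBs and PCs. The 250 bases before the start are printed, and the 50 bases after it, which hold none of the marked letters in either gene, were searched too. Capitals mark TGACGT, the core of sites for CREB and ATF factors, and CCACG, the latter part of the ER stress response element, each searched on both strands. The letters of both motifs can overlap where they meet on opposite strands, but neither promoter shown holds both. The sequences are from GRCm38.p6 and read in the direction of the gene. *Creb3l2* holds 1 TGACGT and no CCACG, whereas *Creb3* holds 3 CCACG and no TGACGT.
Creb3l2, chr6:37442149-37442398, minus strand: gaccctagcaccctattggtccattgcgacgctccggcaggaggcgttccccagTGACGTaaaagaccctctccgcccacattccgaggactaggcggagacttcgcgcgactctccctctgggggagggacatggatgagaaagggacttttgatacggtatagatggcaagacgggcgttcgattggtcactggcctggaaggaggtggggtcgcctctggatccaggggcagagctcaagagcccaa
Creb3, chr4:43562408-43562657, plus strand: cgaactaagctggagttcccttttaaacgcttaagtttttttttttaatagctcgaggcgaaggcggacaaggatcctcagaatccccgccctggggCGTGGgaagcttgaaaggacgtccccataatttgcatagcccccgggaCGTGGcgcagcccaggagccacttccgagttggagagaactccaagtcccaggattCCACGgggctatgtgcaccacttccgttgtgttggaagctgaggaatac
Of 32851 RefSeq promoters of 300 bases, 7.51% hold TGACGT and 32.8% hold CCACG, so that a match is a description of these letters and not a site. The entries for *Creb3l3* and *Creb3l4*, 2 and 3 in number, hold no TGACGT, while 1 *Creb3l3* entry holds 2 CCACG, and 2 of the *Creb3l4* entries hold 1 each.

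In *Xbp1*-deficient PBs, *Creb3l2* fell 2.75-fold and *Creb3* fell 1.42-fold against *Xbp1* fl/fl PBs, while neither *Creb3l1* nor *Creb3l4* passed the test. The difference was tested with limma on the log2 of scaled TPM plus 0.1 over all genes, with Benjamini-Hochberg adjusted p-values. The SE comes from the spread within groups, pooled over all PB libraries. *Creb3l2* changed by -1.46 ± 0.08 on the log2 scale (SE, n = 2 libraries per group; adjusted p = 5.59e-06, limma). Both *Xbp1*-deficient libraries lay far below both control libraries. *Creb3* (chr4:43575204-43579932, plus strand, mm9) encodes Luman, a factor that binds the host cell factor Hcfc1. It was at 126 and 127 TPM in control PBs and at 101 and 105 TPM in the *Xbp1*-deficient PBs, which is -0.50 ± 0.10 on the log2 scale (adjusted p = 0.00737, limma). Here too the libraries of the groups did not overlap.

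The call for *Creb3* was less firm than that for *Creb3l2*. Without the first *Xbp1* fl/fl library, its log2 fold change was -0.47 and the adjusted p in limma was 0.0642, and it was -0.30, with an adjusted p of 0.0103, on TPM as deposited. *Creb3* also shares 360 bp of its exons with *Tln1* and 133 bp with *Gba2*, both on the opposite strand, which together is 20.8% of its 2372 exonic bp. The study names a directional RNA kit, but whether the authors counted by strand is not given in the sources used here. It is therefore unknown whether reads of these neighbours from the shared stretches were counted for *Creb3*. *Tln1*, the gene of the cytoskeletal protein talin, fell in the same comparison by 0.91 on the log2 scale (adjusted p = 7.60e-05, limma), and its part in the *Creb3* value was not tested. *Gba2* did not pass the test, at -0.04.

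*Creb3l1* (chr2:91822485-91864659, minus strand, mm9) encodes OASIS, a factor of bone-forming cells that activates collagen genes. It was at 7.18 and 7.18 TPM in control PBs and at 7.12 and 5.31 TPM in *Xbp1*-deficient PBs, or -0.43 ± 0.17 on the log2 scale (adjusted p = 0.108, limma; 95% interval from -0.83 to -0.02). One *Xbp1*-deficient library was nearly at the level of the control. *Creb3l4* (chr3:90041422-90047434, minus strand, mm9), a member known from the testis and prostate, was at 0.347 and 0.927 TPM in control and at 1.12 and 1.03 TPM in *Xbp1*-deficient PBs, or 0.61 ± 0.53 on the log2 scale (adjusted p = 0.44, limma). It passed the minimum of 1 TPM in 2 libraries through the *Xbp1*-deficient PBs alone, and its groups overlapped once the libraries were scaled. Without the first *Xbp1* fl/fl library its value was 0.042 and without the second 1.18, and that of *Creb3l1* ranged from -0.64 without the first to -0.22 without the second *Xbp1*-deficient library.

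Of the 4 members tested, 2 were thus lower and 0 higher, against 18.0% of 12125 genes lower and 10.3% higher in the same comparison. *Creb3*, *Creb3l1* and *Creb3l2* were lower in both mutant than in both control libraries, as were 35.5% of the genes, while 34.0% were higher in both. The scaling moved all genes by 0.21 on the log2 scale against the deposited TPM, and on those 3423 genes were higher and 1357 lower in place of 1250 higher and 2186 lower. With this scaling left out, the same count of 2 lower members was obtained. No member reached a fold of 3, the size that the study asked for together with more than 5 TPM; 1.63% of the genes did so as lower and 0.239% as higher genes. Marker genes of other cells moved as well. The 10 neutrophil markers, of which 7 reached 1 TPM in the mutant and 4 or 5 in the control libraries, summed to 137 and 138 TPM in *Xbp1*-deficient PBs and to 10.4 and 11.7 TPM in control PBs, with *Elane* at 0 in all 4 libraries and *Mpo* and *Retnlg* at 0 in the control. The 10 plasma cell markers summed to 21909 and 22630 against 42841 and 42818 TPM, and 5 of them fell. Their part in the fall of *Creb3l2* and *Creb3* was not tested; in such bulk samples, fewer cells of a kind and less RNA per cell cannot be told apart.

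**Figure D2:**
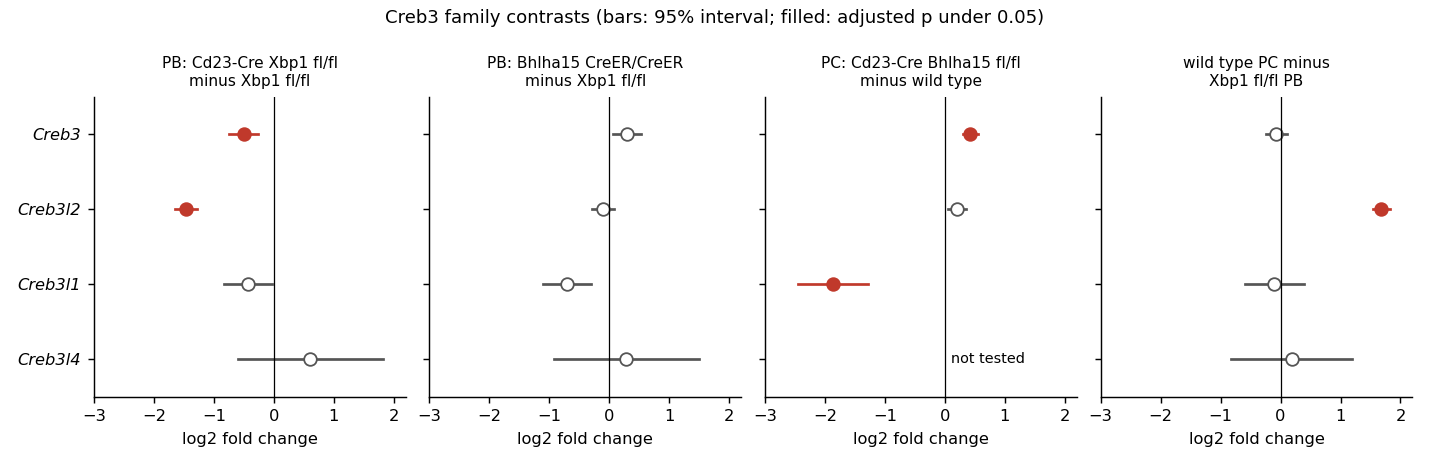
Log2 fold changes of the family members in 4 comparisons, with bars for the 95% interval from limma and filled points where the adjusted p was under 0.05. The fall of *Creb3l2* in *Xbp1*-deficient PBs (-1.46), its higher level in PCs (1.68) and the fall of *Creb3l1* in Mist1-deficient PCs (-1.87) stand furthest from 0.

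In *Bhlha15* CreER/CreER PBs, no member passed the test against *Xbp1* fl/fl PBs. *Creb3l2* was close to the control, with a log2 fold change of -0.11 ± 0.08 (adjusted p = 0.676, limma; 95% interval from -0.29 to 0.07). *Creb3*, at 142 and 160 TPM, gave 0.30 ± 0.10 (adjusted p = 0.372, limma). Its value was 0.46 without the first *Bhlha15* CreER/CreER library (adjusted p = 0.0586, limma) and 0.14 without the second. *Creb3l1*, at 4.63 and 3.87 TPM, gave -0.71 ± 0.17 (adjusted p = 0.202, limma), and both of its libraries were below both control libraries, as in 19.4% of the genes, with 18.9% above. *Creb3l4* was at 0.630 and 0.774 TPM, within the range of the control libraries, with a log2 fold change of 0.28 ± 0.53 (adjusted p = 0.895, limma). In this comparison, few genes passed at all: 0.272% of 12125 genes were lower and 0.0495% higher at an adjusted p under 0.05, which is 39 genes, while 1267 had an unadjusted p under 0.05, among them *Creb3* and *Creb3l1* (unadjusted p = 0.0197 and 0.00345, limma).

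Both mutant PB genotypes had little *Bhlha15* mRNA, and they were compared directly in the same model. *Creb3l2* was lower in *Xbp1*-deficient than in *Bhlha15* CreER/CreER PBs, with a log2 fold change of -1.35 ± 0.08 (adjusted p = 8.14e-06, limma), and *Creb3* gave -0.80 ± 0.10 (adjusted p = 6.71e-04, limma). These 2 of the 4 members were called, where 17.8% of the genes were lower and 9.34% higher. *Creb3l1* gave 0.28 ± 0.17 (adjusted p = 0.269, limma), and its groups did not overlap, with the *Xbp1*-deficient libraries above the others. On scaled TPM they were barely apart, as the nearest libraries stood at 4.72 (*Xbp1*-deficient) and 4.67 (*Bhlha15* CreER/CreER). Of all genes, 30.9% were separated in this direction on scaled TPM and 33.2% in the other. The comparisons among PBs share libraries, and their values are therefore given side by side only.

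In PCs lacking Mist1, *Creb3l1* fell 3.65-fold and *Creb3* rose 1.34-fold, while *Creb3l2*, the most abundant member, did not pass the test. *Creb3l1* was at 8.19 and 6.36 TPM in wild type PCs and at 1.62 and 2.18 TPM in *Cd23*-Cre *Bhlha15* fl/fl PCs. This is -1.87 ± 0.24 on the log2 scale (SE, n = 2 libraries per group; adjusted p = 0.0045, limma; 95% interval from -2.45 to -1.29). Both wild type libraries lay above both mutant ones, as in 34.3% of the genes, while 36.0% were separated in the other direction. It passed the study's thresholds of fold and level, as did 0.723% of 12028 genes as lower and 0.125% as higher ones. *Creb3l1* is one of the genes that the study listed as Mist1-activated on these same libraries, and the value is therefore not independent evidence for that listing.

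*Creb3* rose from 128 and 132 TPM to 174 and 170 TPM, by 0.42 ± 0.05 on the log2 scale (adjusted p = 0.0042, limma). Its overlapping neighbour *Tln1* fell by 0.32 on the log2 scale in the same PCs (adjusted p = 0.0139, limma), opposite in direction to *Creb3*. *Creb3l2* gave 0.20 ± 0.06 (adjusted p = 0.0616, limma), and its wild type libraries were both below the mutant ones. It passed with an adjusted p of 0.0368 when all 10 libraries were fitted together. Of the 3 members tested in PCs, 1 was lower and 1 higher, against 16.2% of the genes lower and 13.3% higher. *Creb3l4* was at 0.682 and 0.765 TPM in wild type and at 0.652 and 0.335 TPM in mutant PCs, below the minimum of 1 TPM in at least 2 libraries, and was not tested.

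The PB and PC effects of the *Bhlha15* alleles were then set against each other by an interaction contrast in a model of all 10 libraries. None of the 4 members tested passed in limma, where 6.11% of 13230 genes did, and 2, *Creb3l1* and *Creb3l2*, had an unadjusted p under 0.05. For *Creb3l1*, the effect in PCs minus that in PBs was -1.14 ± 0.31 on the log2 scale (adjusted p = 0.0628, limma). For *Creb3l2*, the difference was 0.32 ± 0.09 (adjusted p = 0.0682, limma), and for *Creb3* it was 0.14 ± 0.11 (adjusted p = 0.517, limma). The value of *Creb3l1* crossed the threshold without the second wild type PC library, at -1.35 (adjusted p = 0.047, limma). The alleles differ as well, a knock-in of CreER on one side and Cre-deleted floxed alleles on the other, which cannot be told apart from the difference between PBs and PCs.

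A further measured fact stands beside the *Creb3l1* values of the cultured PBs. The 12 fibroblast markers, among them *Col1a1*, *Col1a2* and *Dcn*, summed to 1228 and 1465 TPM in control PBs, to 1937 and 1784 TPM in *Xbp1*-deficient PBs and to 1620 and 984 TPM in *Bhlha15* CreER/CreER PBs. In each PB library, 9 or 10 of the 12 were at 1 TPM or more, and *Postn* was listed at 0 in 2 of them. In PCs, they summed to 27.5 to 32.7 TPM, *Col1a1* was at 0.332 to 0.451 TPM, and *Lum* and *Postn* were listed at 0 in both *Cd23*-Cre *Bhlha15* fl/fl libraries, while *Thy1* was at 15.1 to 22 TPM and *Fn1* at 7.09 to 9.65 TPM. The part of fibroblasts in the *Creb3l1* values was not tested. The neutrophil markers summed to 1004 and 473 TPM in wild type and to 864 and 572 TPM in mutant PCs, and the part of these cells in the values of the family was not tested.

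Wild type PCs and control PBs were compared to follow the family from culture to spleen. *Creb3l2* was 3.21-fold higher in PCs, or 1.68 ± 0.06 on the log2 scale (SE, n = 2 libraries per group; adjusted p = 4.84e-08, limma). It was the 1 member of 4 that passed, where 37.6% of the genes were higher and 38.4% lower, and it also passed the study's thresholds, which 7.77% of the genes passed as higher and 6.19% as lower. Libraries of the groups were separated for 44.1% of the genes upwards and for 43.8% downwards. *Creb3* was at 128 and 132 TPM in PCs and 126 and 127 TPM in PBs, and its log2 fold change of -0.07 ± 0.08 had a 95% interval from -0.25 to 0.11 (adjusted p = 0.421, limma). *Creb3l1* gave -0.11 ± 0.22 (adjusted p = 0.672, limma), with overlapping libraries. Both of these values changed sign on TPM as deposited, so that no direction is given for them. Stage, culture, tissue and experiment cannot be told apart in this comparison. The markers of other cells differed too. Of the 10 neutrophil markers, 9 or 10 reached 1 TPM in wild type PCs and 4 or 5 in control PBs, of the 7 T cell markers 7 and 2, of the 8 macrophage markers 8 and 2, and of the 12 fibroblast markers 4 and 10. Their part in the *Creb3l2* difference was not tested.

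The ratio of *Creb3l2* to *Creb3* within a library does not depend on the scaling of libraries. It was 0.803 and 0.750 in control PBs, 0.398 and 0.402 in *Xbp1*-deficient PBs and 0.659 and 0.521 in *Bhlha15* CreER/CreER PBs. In PCs, it was 2.64 and 2.59 in wild type and 2.31 and 2.18 in *Cd23*-Cre *Bhlha15* fl/fl libraries. No library of any group overlapped with those of another group, although with 2 libraries per group the smallest two-sided p of an exact permutation test is 0.333. How often the ratio of other gene pairs separates the groups in this way is not given here.

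**Figure D3:**
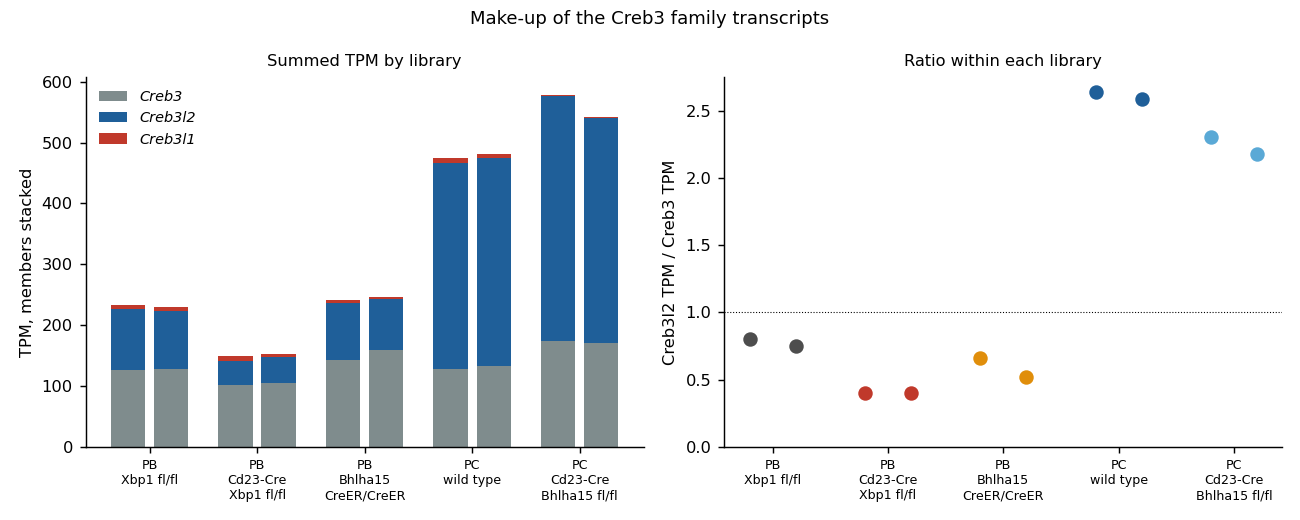
Summed TPM of *Creb3*, *Creb3l2* and *Creb3l1* in each library, stacked from 0 (left), and the ratio of *Creb3l2* to *Creb3* TPM in each library (right, dotted line at equal levels). The ratio was at or below 0.803 in the PB libraries and at or above 2.18 in the PC libraries.

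*Creb3l3* (chr10:80547069-80561619, minus strand, mm9) encodes CREBH, a factor of the liver that activates genes of the acute phase. It ranged from 0.0475 to 0.158 TPM in the PB libraries and up to 0.103 TPM in the PC libraries, and was listed at 0 in 1 *Cd23*-Cre *Bhlha15* fl/fl library. It passed the minimum of 1 TPM in no library and was not tested. *Creb3l4* stayed at or below 1.12 TPM in all 10 libraries, and the deposited TPM of its groups overlapped in their order except for *Xbp1*-deficient PBs, whose 2 libraries were above all others. With the PB libraries scaled, the lower *Xbp1*-deficient library was at 0.915 TPM and the higher control library at 0.928 TPM. The share of all genes with such an order is not given here.

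The genes through which the family is cleaved, moved and turned over were examined next as a list of 15, all of which were tested. *Mbtps1*, which encodes the protease that cuts first, was at 70.6 and 72.5 TPM in control PBs and at 78.9 and 83.7 TPM in *Xbp1*-deficient PBs, with a log2 fold change of -0.02 ± 0.07 (adjusted p = 0.846, limma). *Mbtps2*, which encodes the protease that cuts next, was at 18.6 and 18.7 TPM and at 24.6 and 24.5 TPM, with 0.19 ± 0.09 (adjusted p = 0.149, limma). With the libraries scaled by the median of ratios, neither protease gene passed the test, although their deposited TPM were higher in both mutant libraries. The change relative to all genes is what this fit measures.

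Other members of the list did change in *Xbp1*-deficient PBs. In all, 9 of the 15 were lower and 1 higher, with a median log2 fold change of -0.37, beside 0.004 for all genes tested, of which 18.0% were lower and 10.3% higher. *Insig1*, which keeps the SREBP factors in the ER, was at 222 and 219 TPM in the control and at 39.5 and 32.8 TPM in the mutant, with a log2 fold change of -2.82 ± 0.10 (adjusted p = 8.91e-07, limma). *Atf6b*, a relative of *Atf6* released by the same proteases, was at 231 and 228 TPM and at 51.2 and 46.4 TPM, with -2.44 ± 0.08 (adjusted p = 6.51e-07, limma). These 2 genes also passed the study's thresholds. *Srebf2* (-1.52), *Syvn1* (-1.43), *Srebf1* (-1.0) and *Sel1l* (-0.78), of which *Syvn1* and *Sel1l* encode the ubiquitin ligase complex of ER-associated degradation, were lower under each scaling. *Atf6* (-0.37), *Insig2* (-0.38) and *Scap* (-0.34) were not past the test on TPM as deposited, where 6 genes were lower and 2 higher. *Crebrf*, whose product is described to bind Creb3 and promote its decay, was the 1 gene that rose, from 23.6 and 23.5 TPM to 36.0 and 41.7 TPM, by 0.51 ± 0.12 (adjusted p = 0.0152, limma).

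In *Bhlha15* CreER/CreER PBs, none of the 15 passed in limma, and 1, *Sel1l*, had an unadjusted p under 0.05. In PCs lacking Mist1, 6 of the 15 were lower and 0 higher, with a median of -0.11, beside 0.014 for all genes tested, of which 16.2% were lower and 13.3% higher. *Scap*, the escort protein of the SREBP factors, was at 96.2 and 81.4 TPM in wild type PCs and at 43.7 and 43.9 TPM in mutant PCs, with a log2 fold change of -1.0 ± 0.11 (adjusted p = 0.00291, limma). It was also the 1 gene of the list for which the effects in PCs and PBs differed (-0.81 in the interaction contrast, adjusted p = 0.0151, limma). The other lower genes, *Insig1*, *Insig2*, *Srebf2*, *Srebf1* and *Syvn1*, fell by 0.28 to 0.47 on the log2 scale. *Mbtps1* was at 106 to 112 TPM in the PC libraries and gave -0.01 ± 0.05 (adjusted p = 0.881, limma). Between wild type PCs and control PBs, 8 of the 15 were higher and 5 lower, where 37.6% and 38.4% of all genes were. Among them, *Crebzf*, which encodes a factor that binds Hcfc1, was higher by 1.64 and *Scap* by 1.59 on the log2 scale, whereas *Srebf2* gave -1.06.

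**Figure D4:**
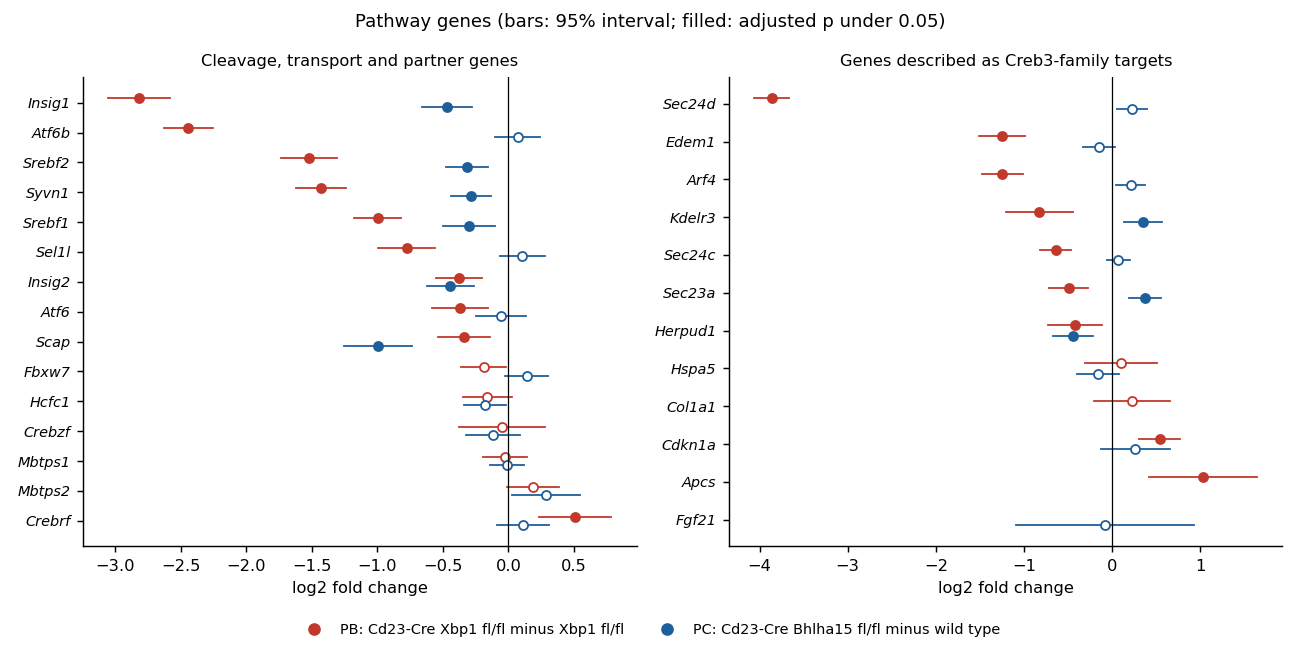
Log2 fold changes of the genes of cleavage, transport and partners (left) and of genes described as targets (right) in *Xbp1*-deficient PBs (red) and in PCs lacking Mist1 (blue), with 95% intervals and filled points where the adjusted p was under 0.05. *Sec24d* (-3.86), *Insig1* (-2.82) and *Atf6b* (-2.44) had the largest falls of the genes shown in the PBs.

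A list of 15 genes described in other cell types as targets of a family member was followed in the same way, of which 11 were expressed highly enough to be tested in PBs. In *Xbp1*-deficient PBs, 7 were lower and 2 higher, with a median of -0.49, where 18.0% of all genes were lower and 10.3% higher. The genes of COPII vesicle coats were among the lower ones. *Sec24d* was at 318 and 306 TPM in control PBs and at 26 and 23.5 TPM in the mutant, with a log2 fold change of -3.86 ± 0.09 (adjusted p = 1.48e-07, limma), making it the 1 gene of the list past the study's thresholds. *Sec24c* and *Sec23a* fell by 0.64 and 0.49. *Arf4*, a small GTPase of the Golgi described as a target of Creb3, was at 643 and 630 TPM and at 307 and 311 TPM, with -1.25 ± 0.10 (adjusted p = 5.09e-05, limma). *Edem1*, which takes part in ER-associated degradation, fell by 1.25, and *Kdelr3*, which retrieves ER proteins, fell by 0.82. *Herpud1* fell by 0.42, a call that was lost on TPM as deposited (adjusted p = 0.0508, limma). *Cdkn1a* and the acute phase gene *Apcs* rose by 0.54 and 1.04. These genes have other regulators, and the counts do not say through which factor they moved.

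In PCs lacking Mist1, 10 genes of this list were tested, of which 2 rose and 1 fell, beside 13.3% of all genes higher and 16.2% lower. *Sec23a* rose from 69.9 and 66.1 TPM to 89.4 and 84.5 TPM, by 0.37 ± 0.07 on the log2 scale (adjusted p = 0.0155, limma), and *Kdelr3* rose by 0.35. *Herpud1* fell by 0.44. *Sec24d* was at 287 and 273 TPM in wild type and at 332 and 315 TPM in mutant PCs and did not pass (adjusted p = 0.0545, limma). On TPM as deposited, 4 genes rose and 1 fell. In *Bhlha15* CreER/CreER PBs, none of the 11 tested passed in limma, and 0 had an unadjusted p under 0.05. *Col1a1*, described as a target of Creb3l1, is also one of the fibroblast markers above and was at 460 to 904 TPM in the PB libraries.

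Mist1 regions were then located around the family. The deposited peaks of the Bio-ChIP experiments numbered 29413 and 30247, and joining those that overlap by 1 bp or more left 23806 regions common to both. The study reports more peaks for each experiment and more common peaks, and the reason for the difference was not tested. A region within 10 kb of a gene was assigned to it. At 4 of the 5 members, such a region was present, whereas 54.1% of 22367 protein-coding genes had one. *Creb3l2* had 5 regions, *Creb3l1* had 3, *Creb3* had 2, *Creb3l4* had 1, and *Creb3l3* had none. Of all protein-coding genes, 16.0% had 3 or more regions, and the 2054 genes within 1.5 times the length of *Creb3l2* had a median of 1. *Creb3l1* and *Creb3l2* were the members with a region within 1 kb of their start site, as was found for 35.8% of all genes. Since these data are peak positions from PBs stimulated with LPS, they give no strength of binding and were not measured in the cells of the RNA-seq libraries.

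E-boxes, the sites of basic helix-loop-helix factors such as Mist1 with the letters CANNTG, were counted in the central 200 bp of each region. They were present in 10 of the 11 regions at the family, with a median of 2, while 76.6% of all common regions had one or more. CAGCTG was found in 4 of the 11 and in 27.9% of all regions, and CATATG in 2 of the 11 and in 11.4%. The pattern reads the same on both strands, and overlapping matches were counted each.

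At *Creb3l1*, the region at the start site spanned chr2:91864178-91864959 (mm9) and overlapped the first exon. Its centre lay 91 bp downstream of the start, in an untranslated part of that exon, and its central 200 bp held 1 E-box. This site is shown in 30 bases of the plus strand, with the E-box in capitals, because *Creb3l1* was the member that fell in PCs lacking Mist1.
Creb3l1 start site, chr2:91864489-91864518: cctcccggggcgCAGCTGgcttccatgggg
A second region, chr2:91825077-91826511, lay in the gene body with its centre in an intron, 38865 bp downstream of the start, and held 1 E-box, CATCTG, in its central 200 bp. The third, chr2:91812886-91813498, lay 8987 bp beyond the end of the gene and held 4 E-boxes, CATATG among them.

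At *Creb3l2*, which did not pass the test in PCs lacking Mist1, 2 regions lay at the start site and 3 in introns, between 13273 and 22640 bp downstream of the start. The larger region at the start, chr6:37390016-37392185, had its centre 1046 bp downstream in an intron and 4 E-boxes in the central 200 bp. The intronic region furthest downstream, chr6:37369184-37369829, also held 4, CAGCTG among them. Both central windows are shown on the plus strand of mm9, with E-boxes in capitals, as the windows with the most E-boxes at this gene.
Creb3l2 start, chr6:37391000-37391199: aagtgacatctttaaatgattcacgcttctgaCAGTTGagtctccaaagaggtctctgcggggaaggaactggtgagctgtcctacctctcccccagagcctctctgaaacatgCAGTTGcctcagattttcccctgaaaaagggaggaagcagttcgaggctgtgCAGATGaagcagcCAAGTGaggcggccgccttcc
Creb3l2 intron, chr6:37369406-37369605: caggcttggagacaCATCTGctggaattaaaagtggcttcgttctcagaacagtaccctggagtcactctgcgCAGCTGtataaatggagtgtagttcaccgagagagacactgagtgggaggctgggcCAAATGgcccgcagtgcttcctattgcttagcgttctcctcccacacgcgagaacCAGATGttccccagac
Regions with 4 or more E-boxes in the central 200 bp made up 7.41% of all common regions.

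Both regions assigned to *Creb3*, chr4:43566780-43567336 and chr4:43569981-43572223, lay upstream of its start, the nearer one 2981 bp away and within 1 kb of a start site of *Tln1*. The region near *Creb3l4*, chr3:90034719-90036572, lay 4850 bp beyond its end, within 1 kb of a start site of *Jtb*, and had no E-box in its central 200 bp. The regions of these members may thus be counted for a neighbouring gene as well.

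**Figure D5:**
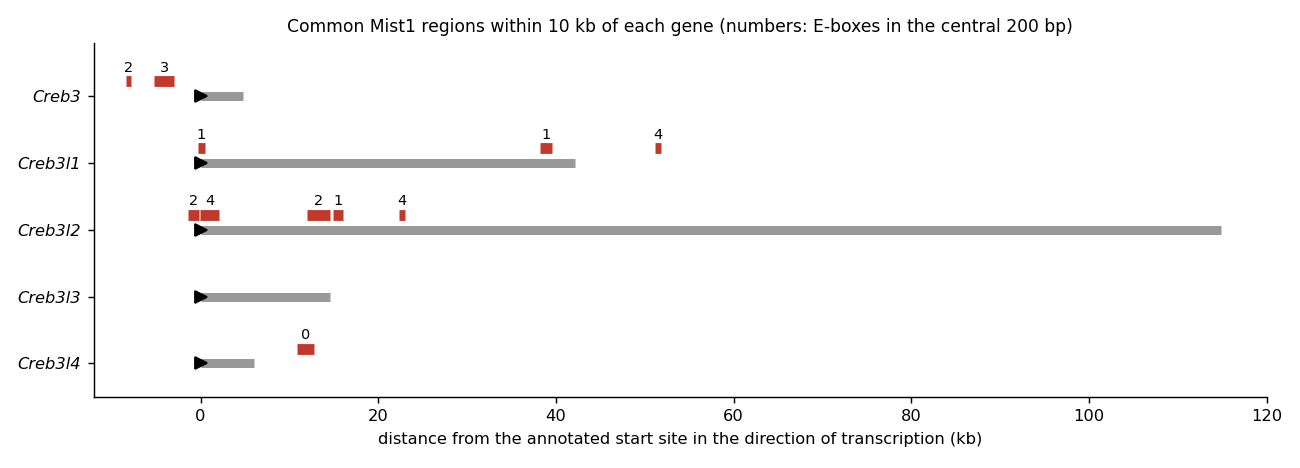
Common Mist1 regions (red bars, to scale) within 10 kb of each family gene (grey bars), by distance in kb from the annotated start site in the direction of transcription, with the number of E-boxes in the central 200 bp above each region. *Creb3l2* had 5 regions and *Creb3l1* had 3, whereas *Creb3l3* had none.

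The genes whose group means were most like those of a member were listed for the members that varied enough between groups, with a standard deviation of the 5 group means of at least 0.5 on the log2 scale. Likeness was the root mean square difference of the centred log2 means over 5 groups, among 13229 genes. For *Creb3l1*, the nearest genes were *Smc2os* (0.11), *Hs2st1* (0.12) and *Tubb4a* (0.18). The group means of *Smc2os* were only 0.281 to 1.01 TPM, at or below the level asked for in the test, and those of *Tubb4a* were 0.987 to 3.43 TPM. *Hs2st1*, the gene of a heparan sulfate sulfotransferase, had means of 23.5 TPM in wild type PCs, 5.65 TPM in mutant PCs and 24.5, 19.0 and 15.9 TPM in control, *Xbp1*-deficient and *Bhlha15* CreER/CreER PBs. For *Creb3l2*, they were *Ccdc134* (0.12), *Tspyl2* (0.15) and *Snord83b* (0.16). *Ccdc134* had means of 374 and 360 TPM in wild type and mutant PCs and of 112, 40.9 and 101 TPM in the PBs in the same order. With 5 groups and this many genes, some close patterns are always found, and the lists are a description.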

How the data were processed

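Per the labels and the study's methods, the authors trimmed reads with cutadapt, aligned them with STAR 2.4.2 to mm9, used featureCounts 1.5 for gene counts and deposited TPM from which immunoglobulin and T cell receptor genes had been left out. The authors called the deposited Mist1 peaks with Bowtie 1.0.0 and MACS against input of mature B cells, as positions alone, without a score.

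TPM were scaled by the median of ratios, and genes reaching 1 TPM in 2 or more libraries of a model were fitted as log2(TPM + 0.1) with limma 3.58.1 in R 4.3.3 (lmFit, eBayes with trend). Such fold changes understate those of low genes. P-values were adjusted by Benjamini-Hochberg across the genes tested in a contrast. The 6 PB, 4 PC and all 10 libraries formed a model each. The study tested read counts, which TPM cannot replace. TPM keep no depth, so that no counting interval is given. Nothing in the labels says which libraries of different groups belong to the same experiment. Each SE and p-value from limma rests on the spread within groups of 2 libraries, pooled over all groups of a model and moderated by eBayes. The SE of a gene is therefore the same in each contrast among PBs. The study describes the replicates of the control PBs, the *Xbp1*-deficient PBs and the PCs as independent experiments. It gives no such description for the *Bhlha15* CreER/CreER PBs. The fit was tested on simulated data.

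Gene names were used after removal of a suffix, carried by *Creb3*, that appears to mark overlapping genes. Gene positions are from GENCODE M1 (NCBIM37, which is mm9), promoters from RefSeq, in which *Creb3*, *Creb3l2*, *Creb3l3* and *Creb3l4* matched. Regions and E-boxes were read with Python 3.11.15 and pandas 2.3.3. The members and lists were chosen with earlier results of these data known. Genes named are the members, the targeted genes, list genes, the 3 genes closest in pattern to a member and, chosen for their overlap or position, *Tln1*, *Gba2* and *Jtb*. Alternatives were other scalings, pseudocounts of 1 and 0.01, filters, eBayes settings, models, each library left out, and other distances, overlaps and windows. The other scalings of the list counts were chosen after seeing the data.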

Additional observations from a re-analysis of the deposited data

How the results depend on the processing

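Of 428 values recomputed for 36 results, 406 kept their direction and their side of the threshold, or stayed within 1.5 times as counts. The falls of *Creb3l2* in *Xbp1*-deficient PBs (-1.54 to -1.25 over 14 alternatives) and of *Creb3l1* in PCs lacking Mist1 (-2.08 to -1.50 over 13), the rise of *Creb3* there (0.40 to 0.44) and the higher *Creb3l2* in PCs than in PBs (1.62 to 1.85) were among them throughout. With each library left out, the number of members past the test in *Xbp1*-deficient PBs ranged from 1 to 2 and the *Creb3* change from -0.54 to -0.47; *Creb3l4* ranged from -0.29 to 0.85 in *Bhlha15* CreER/CreER PBs and from -0.41 to 0.76 between PCs and PBs, where *Creb3l1* ranged from -0.31 to 0.10. For the difference of the *Bhlha15* effects, that number ranged from 0 to 1 and *Creb3l1* from -1.35 to -0.93. The sign turned for *Creb3* between PCs and PBs on deposited TPM (0.042) and after quantile normalization (0.050), and for *Creb3l1* on deposited TPM (0.0067). *Creb3l2* in PCs passed in the model of all 10 libraries (0.21, adjusted p = 0.0368). In the difference of the *Bhlha15* effects, 1 member passed after quantile normalization (*Creb3l2*, 0.32, adjusted p = 0.0498) and 1 under robust eBayes (*Creb3l1*, -1.14, adjusted p = 0.0495), all in limma. Within 1 kb in place of 10 kb, 2 members had a Mist1 region. Over all genes, the *Bhlha15* CreER/CreER contrast had 6 higher and 33 lower genes, 0 higher and 3 lower without the first *Xbp1* fl/fl library, and 20 higher and 86 lower in the model of all 10 libraries, while *Xbp1*-deficient against *Bhlha15* CreER/CreER PBs had 1132 higher and 2155 lower genes, and 3977 and 1266 on deposited TPM. The causes were not tested. No paired analysis was possible because the labels give no replicate numbers that groups share. With 2 libraries per group and unknown depth, members near or below 1 TPM can show only large differences.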

Other observations

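CREB and ATF factors without an ER anchor and their coactivators, a list of 11 genes of which 10 were tested, had no higher and 2 lower members in *Xbp1*-deficient PBs, beside 18.0% of all genes lower. *Crem* fell by 0.40 and *Atf2* fell by 0.39 on the log2 scale (adjusted p = 0.0191 and 0.0103, limma), and neither passed on TPM as deposited, where 3 others were higher. In PCs lacking Mist1, *Atf2* was higher by 0.34 and *Atf1* fell by 0.23, a call lost after quantile normalization. Between wild type PCs and control PBs, 6 of the 10 were higher and none lower, where 37.6% of all genes were higher and 38.4% lower. The 6 include the coactivator gene *Crebbp* at 27.9 against 11.1 TPM and *Creb1* at 28.5 against 17.2 TPM. No test set this list against the Creb3 family.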
